A study of Mus musculus with 12 samples.

Results

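Cd36, Apoe, Mrc1 and Cpt1a, genes of lipid handling and endocytosis, were followed in antibody-secreting cells (ASCs). These 4 of the 32285 genes in the matrices were chosen by their measured levels in spleen in an earlier look at the same data, so tissue differences of these genes are given below as a description with no test. The cells came from Prdm1-eYFP reporter mice on a C57BL/6 background, 3 months old, in which a yellow fluorescent protein marks cells that use the promoter of Prdm1, the master regulator of the ASC program. ASCs were sorted as CD138HI, IgD-, CD90.2- and reporter-positive cells, with B220 either present or absent. Bone marrow, spleen and thymus of females and of males gave 6 single-cell 5' RNA libraries, each 1 pool of 3 mice, with no other treatment. A tissue is therefore represented by 2 libraries that also differ in sex, and every mean ± SD below is over those 2. A cell was kept when it held at least 1000 unique molecular identifiers (UMIs, each counting 1 captured RNA molecule) outside the immunoglobulin genes and when 1 light-chain variable gene took at least 50% of its light-chain variable UMIs, as in a cell that makes 1 antibody.

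This left 8715 of 39949 cells. Bone marrow gave 1238 from females and 1665 from males, spleen gave 3567 and 1850, and thymus gave 107 and 288. Levels are UMIs summed over the cells of a library, per 1000000 UMIs outside immunoglobulin genes (CPM), on 264621 such UMIs in female thymus to 21287170 in female spleen. The intervals printed with them are exact 95% Poisson intervals and cover counting error only. ASC markers were high in every library: Xbp1 lay between 3074 and 3707 CPM and Prdm1 between 840 and 1068 CPM. Pairs of libraries shared 24 to 247 cell barcodes, or 1.84% to 6.52% of the smaller library, the highest shares being those of female thymus with bone marrow. Spleen libraries stood apart in free RNA, with a median estimated share per cell of 26.3% and 19.3% in female and male spleen, against 10.0% and 10.7% in bone marrow and 3.21% and 7.07% in thymus. The sex labels matched the RNA of all 6 libraries: Xist was at 672 to 1629 CPM in the female and at most 1.68 CPM in the male libraries, and Ddx3y, on the Y chromosome, at 60.2 to 84.1 CPM in the male and at most 0.0470 CPM in the female libraries. The share of cells with under 10% of UMIs from ribosomal protein genes was lowest in female spleen, at 51.2%, and was 66.4% to 86.0% elsewhere. Ribosomal and mitochondrial shares here and below are of the UMIs outside immunoglobulin genes.

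CD36 is a membrane receptor that takes up long-chain fatty acids and oxidized lipoproteins. ApoE is a secreted apolipoprotein that carries cholesterol and is bound by receptors of the LDL receptor family. The mannose receptor encoded by Mrc1 (CD206) is a C-type lectin that internalizes glycoproteins, and Cpt1a encodes the enzyme that puts long-chain fatty acids onto carnitine for entry into mitochondria, the controlled step of their oxidation. Cd36 is also known from marginal zone B cells, and all 3 of Cd36, Apoe and Mrc1 are abundant in macrophages, which is why every level was also taken in cells without any UMI of C1qa, C1qb, Lyz2 or Csf1r.

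In the GENCODE M21 annotation of GRCm38 the genes lie apart, and all are protein coding. Cd36 (ENSMUSG00000002944) is at chr5:17781690-17888801 on the minus strand, Apoe (ENSMUSG00000002985) at chr7:19696109-19699188 on the minus strand, Mrc1 (ENSMUSG00000026712) at chr2:14229392-14332057 on the plus strand and Cpt1a (ENSMUSG00000024900) at chr19:3322334-3385733 on the plus strand. Mrc1 spans the microRNA gene Mir511; the other 3 overlap no annotated gene. The bases from 250 to 31 before a RefSeq start of each gene (GRCm38.p6) are shown because 3 of the genes were high together in spleen. They are printed 5' to 3' on the gene's strand, at chr5:17835927-17836146, chr7:19699219-19699438, chr2:14229164-14229383 and chr19:3323051-3323270. No annotated exon overlaps these windows, although those of Cd36 and Cpt1a lie inside the span of longer annotated transcripts. Capitals mark matches on either strand to GAGGAA (an ETS core), AGGTCA (a nuclear receptor half-site), GGGCGG (a GC box) and CCAAT.

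Cd36: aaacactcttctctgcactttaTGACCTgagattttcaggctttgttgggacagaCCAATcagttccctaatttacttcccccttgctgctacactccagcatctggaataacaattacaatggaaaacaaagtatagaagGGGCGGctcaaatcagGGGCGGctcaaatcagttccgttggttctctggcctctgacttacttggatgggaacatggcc
Apoe: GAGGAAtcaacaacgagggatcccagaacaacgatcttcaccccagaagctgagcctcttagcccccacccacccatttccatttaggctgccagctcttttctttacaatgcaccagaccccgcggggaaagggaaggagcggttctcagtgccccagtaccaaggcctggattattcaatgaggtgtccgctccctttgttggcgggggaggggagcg
Mrc1: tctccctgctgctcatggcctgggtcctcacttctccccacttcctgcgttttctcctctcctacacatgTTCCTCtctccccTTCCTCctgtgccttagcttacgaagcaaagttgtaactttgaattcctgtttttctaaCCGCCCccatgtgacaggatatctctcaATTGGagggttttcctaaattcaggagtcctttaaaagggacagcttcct
Cpt1a: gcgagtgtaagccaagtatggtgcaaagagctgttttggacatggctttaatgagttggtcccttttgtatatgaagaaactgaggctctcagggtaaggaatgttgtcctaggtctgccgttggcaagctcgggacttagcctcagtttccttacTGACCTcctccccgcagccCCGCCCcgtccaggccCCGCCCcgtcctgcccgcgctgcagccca

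The 4 sequences did not share a motif of this search. Cd36 and Cpt1a each held 1 half-site, a motif of 12.5% of the 32817 RefSeq promoter windows of this length, and 2 GC boxes, a motif of 28.5% of windows that Mrc1 held in 1 copy. Mrc1 held 2 ETS cores and Apoe 1, against 20.4% of windows with at least 1. CCAAT was in the Cd36 and Mrc1 windows and in 30.99% of all windows. No match overlapped another. A second RefSeq window of Apoe, at chr7:19698652-19698871 and not printed, held none of the 4 motifs.

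Cd36 had the largest ratio of mean spleen to mean bone marrow level of the 4 genes, 3.99. Its level was 23.0 CPM (interval 21.03 to 25.1, 490 UMIs) in female spleen and 20.2 CPM (17.2 to 23.6, 160 UMIs) in male spleen. In bone marrow it was 5.98 CPM in the female and 4.84 CPM in the male library, and in thymus 7.56 and 7.57 CPM, on 2 and 9 UMIs. Both spleen libraries lay above the 4 others, whose intervals overlapped one another. The interval of female thymus, 0.915 to 27.3 CPM, also covered both spleen levels. The tissue means were 21.6 ± 2.0 CPM in spleen, 5.41 ± 0.805 CPM in bone marrow and 7.56 ± 0.00830 CPM in thymus (SD, n = 2), and spleen was 3.85 times bone marrow in females and 4.17 times in males.

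Apoe was the most counted of the 4 genes and differed most between the spleen libraries. It stood at 203 CPM (197 to 209, 4320 UMIs) in female and 108 CPM (100 to 115, 852 UMIs) in male spleen. Female libraries gave 54.2 CPM for bone marrow and 52.9 for thymus, male libraries 44.6 for each, so that the spleen libraries were again the 2 highest. Tissue means were 155 ± 67.5 CPM in spleen, 49.4 ± 6.81 in bone marrow and 48.7 ± 5.89 in thymus (SD, n = 2). Spleen was 3.75 times bone marrow in females and 2.41 times in males.

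Mrc1 was high in spleen and in male thymus. The level was 14.8 CPM (13.2 to 16.5, 314 UMIs) in female and 17.0 CPM (14.3 to 20.2, 135 UMIs) in male spleen, against 5.98 and 4.41 CPM in bone marrow. Male thymus, at 16.8 CPM (10.3 to 26.0, 20 UMIs), lay between the spleen libraries, and female thymus gave 1 UMI, or 3.78 CPM with an interval up to 21.1. Spleen therefore exceeded bone marrow in both sexes, by 2.47 and 3.86 times, while an order of spleen and thymus could not be read at this depth.

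Cpt1a did not follow the grouping. It was 14.7 CPM (13.1 to 16.4, 312 UMIs) in female spleen, below the 18.5 CPM (15.1 to 22.4, 105 UMIs) of female bone marrow, and 25.6 CPM (22.2 to 29.4, 203 UMIs) in male spleen, above the 14.6 CPM (12.3 to 17.3, 136 UMIs) of male bone marrow. The means of spleen and bone marrow, 20.1 ± 7.75 and 16.6 ± 2.71 CPM (SD, n = 2), differed by less than the spread between the spleen libraries. Male thymus gave 8 UMIs (6.73 CPM, 2.90 to 13.3), with spleen at 3.81 times that level. Female thymus gave 1 UMI (3.78 CPM), whose interval of 0.0957 to 21.1 CPM covers the female spleen level, so no order could be read there.

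**Figure D1:**
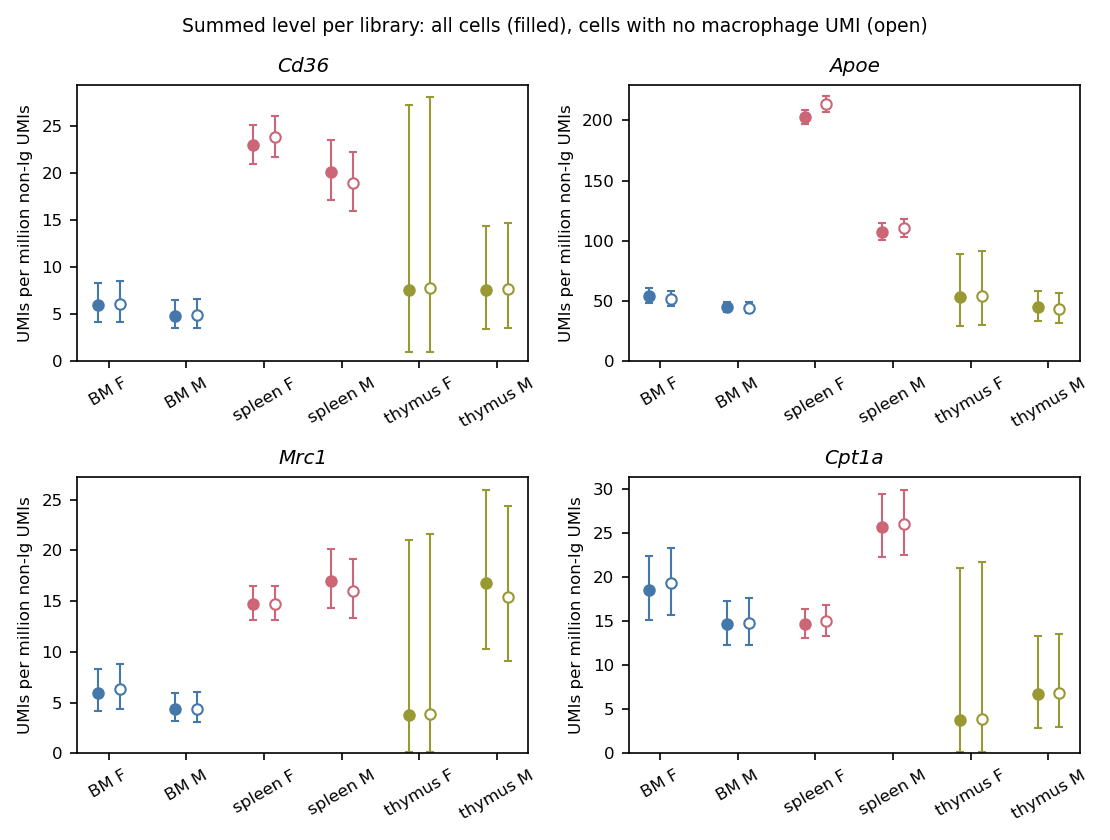
Level of each gene (y axis, CPM, outside immunoglobulin genes) in the 6 libraries (x axis, bone marrow as BM, F female, M male), in all cells (filled) and in cells with no macrophage UMI (open), with exact 95% Poisson intervals. Cd36 and Apoe are highest in the 2 spleen libraries, Mrc1 is as high in male thymus, and Cpt1a of female spleen lies below that of female bone marrow.

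Spleen stayed above bone marrow for Cd36, Apoe and Mrc1 without the cells that held a macrophage UMI. Those were 174 of 3567 cells in female spleen, 81 of 1850 in male spleen, 51 and 86 in bone marrow, and 3 and 5 in thymus. In the remaining 8315 cells, female and male spleen stood at 23.8 and 18.9 CPM for Cd36, at 214 and 111 CPM for Apoe, at 14.7 and 16.0 CPM for Mrc1 and at 14.9 and 26.0 CPM for Cpt1a. The 4 macrophage genes summed to 14.7 and 13.9 CPM in spleen before this step and to 51.4 and 36.6 CPM in bone marrow, where Lyz2 made up 45.2 and 32.1 CPM. In female bone marrow 219 of the 257 Lyz2 UMIs lay in 1 cell. Of 19 further macrophage markers, all had a UMI in both spleen libraries, 15 in each bone marrow library and 7 in each thymus library. Their sum was 380 and 322 CPM in spleen, against 495 and 455 in bone marrow and 416 and 404 in thymus. It changed little without the cells holding a macrophage UMI. The sum was then 373 and 307 CPM in spleen, 476 and 442 in bone marrow and 420 and 399 in thymus. Unlike this sum, some defining markers were higher in spleen than in bone marrow at low levels, and others differed between the sexes. C1qb was at 9.40 and 5.68 CPM in spleen against 3.69 and 3.34 in bone marrow, Spic, a factor of red pulp macrophages, at 1.41 and 0.757 against 0.352 and 0.430, and Csf1r at 0.470 and 0.505 against 0.352 and 0.108. Adgre1, which encodes F4/80, was at 0.329 and 0.505 CPM in spleen, against 0.176 and 0.108 in bone marrow. C1qa was at 1.97 CPM in spleen and 2.11 CPM in bone marrow of females, and at 3.91 and 1.08 CPM in males. Vcam1 was at 2.02 and 2.29 CPM in females and at 2.65 and 0.861 CPM in males. Cd5l was at 0.470 and 0 CPM in females and at 0.505 and 0.538 CPM in males. Beyond leaving out the cells with a macrophage UMI, their part in the spleen levels was not tested. Neutrophil markers, at 0.141 CPM or less in spleen, summed to 409.5 and 1413 CPM in bone marrow. Without the cells holding a macrophage UMI they summed to 95.1 and 97.8 CPM there, so the cells left out also carried neutrophil RNA. T cell, endothelial, erythroid and platelet markers summed to at most 64.2 CPM in any library. B cell markers were much higher and highest in spleen, at 1063 and 917 CPM, against 818 and 876 CPM in bone marrow and 828 and 759 CPM in thymus, and their part in the levels was not tested.

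Free RNA held these genes too, and each was higher in that of spleen than in that of bone marrow in both sexes. Droplets outside the called cells held Cd36 at 26.5 and 21.8 CPM in female and male spleen and at 11.5 and 7.37 CPM in bone marrow. Mrc1 was at 15.1 and 12.7 CPM there in spleen and at 7.41 and 5.36 CPM in bone marrow. Cpt1a was at 25.9 and 23.6 CPM in spleen and at 20.6 and 20.1 CPM in bone marrow. Apoe was higher there than in the cells of every library, at 220 and 156 CPM for spleen, 157 and 139 for bone marrow and 73.2 and 180 for thymus, female first. Cd36 was also higher there than in the cells of all libraries but female thymus. Cpt1a was so in all but male spleen, and Mrc1 in all but male spleen and male thymus. From the light-chain UMIs that do not belong to a cell's own antibody, free RNA accounted for an estimated 136 of the 490 Cd36 UMIs and 1126 of the 4320 Apoe UMIs in female spleen, and the observed count was 2.35 to 22.7 times the estimate over all 4 genes and 6 libraries. With the estimate subtracted, the log2 ratio of spleen to bone marrow was 2.07 for Cd36, 1.94 for Apoe, 1.68 for Mrc1 and 0.20 for Cpt1a, against 2.0, 1.65, 1.61 and 0.28 without subtraction. As a cell type for comparison, barcodes outside the kept cells with at least 10 neutrophil marker UMIs held no Cd36 and no Mrc1 UMI in 29 barcodes of female and 21 of male bone marrow, at median depths of 3045 and 10747 UMIs. Apoe had a UMI in 1 and 0 of these barcodes and Cpt1a in 1 and 1. The counts of 0 allow a share of up to 10.3% and 14.3% of such barcodes, wider than the shares in ASCs, so nothing was read from this comparison. Each spleen library had 1 such barcode.

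Few cells held a UMI of any of these genes. Cd36 was counted in 8.83% of female and 5.14% of male spleen cells, against 1.53% and 1.56% in bone marrow. Apoe was counted in 21.98% and 14.6% of spleen cells and in 7.43% and 5.41% of bone marrow cells. With every cell thinned to 1000 UMIs, since median depth ran from 2035 to 4352 UMIs, the Cd36 shares became 2.44% and 1.95% in spleen against 0.561% and 0.448% in bone marrow. The thinned shares of Apoe were 8.07% and 6.06% in spleen, 2.98% and 1.90% in bone marrow and 5.12% and 4.36% in thymus. Fewer positive cells and less RNA per positive cell cannot be told apart at 1 UMI per cell, the count in 61.5% to 78.9% of the Cd36-positive cells of the bone marrow and spleen libraries.

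Apoe RNA was unevenly held over the cells. In female spleen 60 of 3567 cells held 10 or more Apoe UMIs, with a median of 20 and a highest count of 440 in 1 cell, and together they carried 70.6% of all Apoe UMIs of that library. In male spleen 12 of 1850 cells carried 49.6%, with a highest count of 103. Bone marrow had 4 such cells in each library, with 52.3% and 64.0% of the UMIs, and thymus had none, its highest count being 5. Cd36 was uneven on a smaller scale: its highest count in a cell was 13, the 5 cells with most held 58.8% and 42.2% of its UMIs in bone marrow, and cells with 2 to 9 UMIs held 51.4% and 55.0% in spleen. For Cpt1a, 92.4% and 83.1% of Cpt1a UMIs in bone marrow and 84.3% and 81.3% in spleen came from cells with a single UMI, and no cell held more than 4.

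The Apoe-rich cells of spleen were described by the genes that had not chosen them. Of the 60 in female spleen, 2 held a macrophage UMI, and of the 12 in male spleen none did. Summed over the 60 cells there were 5 C1qa, 6 C1qb, 8 Lyz2, 3 Csf1r and 0 Adgre1 UMIs. The first 4 stood at 12.03, 14.4, 19.3 and 7.22 CPM there, above the 1.12, 7.62, 2.44 and 0.312 CPM of the female spleen cells without Apoe UMIs. All UMIs of these 4 genes lay in the 2 cells with a macrophage UMI. Such cells were 3.33% of the 60 and 4.49% of the female spleen cells without Apoe UMIs. In the 12 male cells all 5 genes were at 0. The part of macrophage RNA in these cells was not tested. The ASC genes Prdm1, Xbp1 and Jchain stood at 883, 2578 and 72098 CPM in those 60 cells, and at 841, 3666 and 88349 CPM in the female spleen cells without Apoe UMIs. The 12 male cells gave 1127, 3356 and 62996 CPM for the same genes. Male spleen cells without Apoe UMIs gave 820, 3725 and 57861 CPM. Sdc1, another ASC marker gene, was lower in the Apoe-rich cells than in those without Apoe UMIs. It stood at 205 against 290 CPM in female and 324 against 398 CPM in male spleen. The Apoe-rich cells of spleen were not 1 clone by light chain: the 60 cells led with 26 different light-chain variable genes and the 12 with 9. Their median share of UMIs in the leading light-chain gene was 83.5% and 71.7%, and 50 of the 60 and 8 of the 12 expressed IgM. Of the 4 Apoe-rich cells of female bone marrow, 1 held a macrophage UMI, and that cell had all 219 Lyz2 UMIs of the 4.

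**Figure D2:**
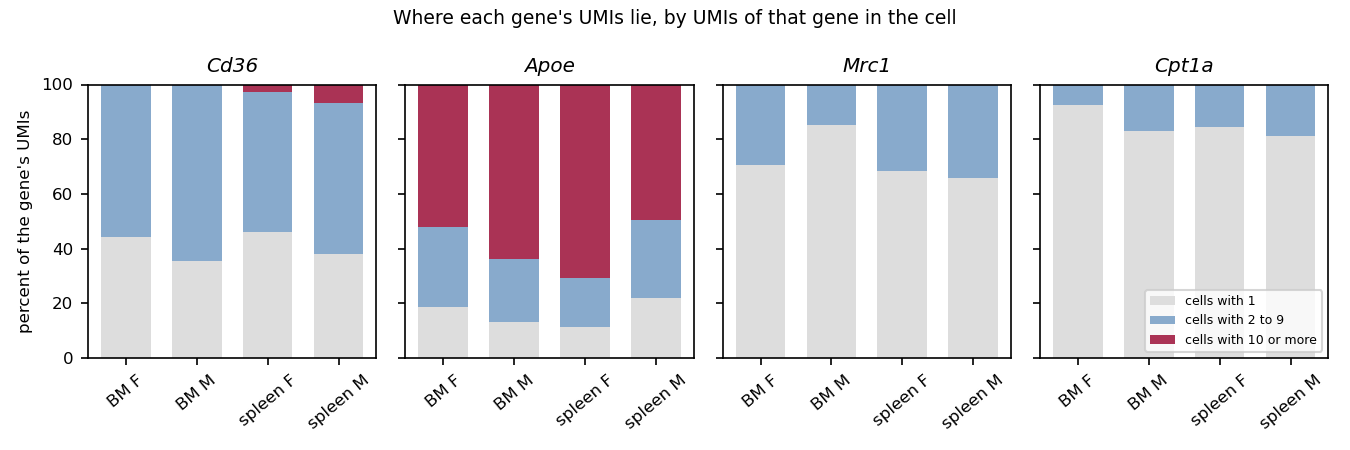
Percent of each gene's UMIs (y axis) that lay in cells with 1, with 2 to 9 and with 10 or more UMIs of that gene, in the 2 bone marrow (BM) and 2 spleen libraries (x axis, F female, M male). Apoe has 49.6% to 70.6% of its UMIs in cells with 10 or more, while Mrc1 and Cpt1a have none there.

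The genes were grouped by their levels in spleen, but the readout behind this was also split by heavy-chain class. The class comparisons may therefore not be independent of the choice of genes. Cells were classed by their leading heavy-chain constant gene as IgM (Ighm), IgA (Igha) or IgG (Ighg1, Ighg2b, Ighg2c or Ighg3), counts were summed per library and class, and the 16 sums with at least 20 cells were compared in 1 edgeR quasi-likelihood fit with the library as a block. At a Benjamini-Hochberg adjusted p under 0.05, Apoe and Cpt1a passed in the comparison of IgA with IgM, in which 7.99% of the 9366 genes tested passed, and neither passed in that of IgG with IgM, in which 11.6% did. Cd36 entered the fit only through female spleen and Mrc1 only with both spleen libraries, the tissue for which they were chosen, so their fold changes over all libraries are given as a description with no test. Classes of 1 library share its pool, sort and free RNA, and p-values measure the spread over these sums only.

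Cd36 was lower in the switched classes than in IgM cells of spleen. In the female library it was 28.2 CPM in IgM, 3.03 CPM in IgA and 10.5 CPM in IgG cells, and in male spleen 22.1, 0 and 7.84 CPM, the 0 being over 36 cells with an upper bound of 24.5 CPM. Female bone marrow had the same order of IgM over the others, 7.01, 0 and 1.80 CPM, while male bone marrow, with 2 UMIs in each switched class, gave 4.72, 7.42 and 6.15 CPM. In thymus no IgA cell held a Cd36 UMI, and the IgG cells of male thymus gave 17.6 CPM on 3 UMIs against 6.71 CPM in IgM. The log2 fold change was -2.85 (SE 0.52) for IgA against IgM and -1.24 (SE 0.27) for IgG against IgM. IgA was lower than IgM in 4 of 5 libraries and IgG in 3 of 5. With no filter on low counts, in fits chosen after seeing the data, the changes without female spleen were -2.09 for IgA and -0.92 for IgG, at edgeR adjusted p of 0.182 and 0.359. Without both spleen libraries they were -1.33 and -0.22, at 0.817 and 0.956. A difference outside spleen was not detectable at this depth.

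Apoe was lower in IgA than in IgM cells of female spleen, at 59.8 against 222 CPM, and of female bone marrow, at 14.3 against 63.5 CPM. Male bone marrow had 44.5 CPM in IgA and 45.8 CPM in IgM cells. In bone marrow the IgM level rested on few cells: the 4 Apoe-rich cells of each library were all IgM and held 161 of 299 IgM UMIs in the female and 265 of 398 in the male library. Male spleen went the other way, with 179 CPM in its 36 IgA cells and 98.6 CPM in IgM cells. The log2 fold change of -1.24 (SE 0.34) passed at an edgeR adjusted p of 0.0194, and without female spleen it was -0.36 at 0.738, so the call depended on that library. With no filter and both spleen libraries left out, in a fit chosen after seeing the data, it was -1.27 and passed at 0.00537. DESeq2 gave -1.03 at an adjusted p of 0.440. IgG cells of spleen held 177 and 167 CPM in females and males, and those of bone marrow 5.40 and 12.3 CPM. The IgG against IgM difference was -0.20 (95% interval -0.69 to 0.29, edgeR adjusted p 0.696), and -2.06 (adjusted p 7.32e-08) in the fit with no filter and no spleen library, whose bone marrow IgM sums include the 8 Apoe-rich cells. Within the IgG class of female spleen, Ighg2b cells gave 306 CPM of Apoe, against 80.0 CPM with Ighg1, 96.5 with Ighg2c and 50.2 with Ighg3. Male spleen gave 153, 155 and 33.9 CPM with Ighg2b, Ighg2c and Ighg3. The Ighg2b level of female spleen came from 570 UMIs in 308 cells. In that library 60 Apoe-rich cells, 50 of them IgM, held 3051 of 4320 Apoe UMIs, and 1 cell held 440. How these cells fell on the IgG subclasses was not counted, so the subclass and IgM levels of spleen may rest on few cells too.

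Mrc1 was lower in IgG than in IgM cells of spleen. The levels were 17.5 CPM in IgM and 7.10 CPM in IgG cells of the female library, and 18.4 and 8.96 CPM in the male library. The log2 fold change over all libraries was -1.01 (SE 0.27). In the other tissues at most 3 Mrc1 UMIs fell into a switched class. For IgA, at 8.33 and 6.63 CPM in female and male spleen, the difference from IgM was -0.85 (SE 0.37). With no filter on low counts, in fits chosen after seeing the data, the IgG change was -0.65 without female spleen (edgeR adjusted p 0.657) and -0.29 without both spleen libraries (0.956).

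Cpt1a alone was higher in IgA than in IgM cells. The levels were 33.3 against 17.9 CPM in female bone marrow, 26.0 against 14.04 in male bone marrow, 25.0 against 13.99 in female spleen and 26.5 against 26.5 in male spleen. Thymus gave 8.07 CPM in IgA, on 1 UMI, against 5.59 in IgM of the male library. The log2 fold change was 0.75 (SE 0.23), which passed at an edgeR adjusted p of 0.0345 but was at 0.0596 without the cells holding a macrophage UMI and at 0.0536 in DESeq2. It did not pass without female bone marrow (adjusted p 0.137), male bone marrow (0.0986) or female spleen (0.265). IgG and IgM cells gave a difference of -0.08 (95% interval -0.46 to 0.31, adjusted p 0.867).

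**Figure D3:**
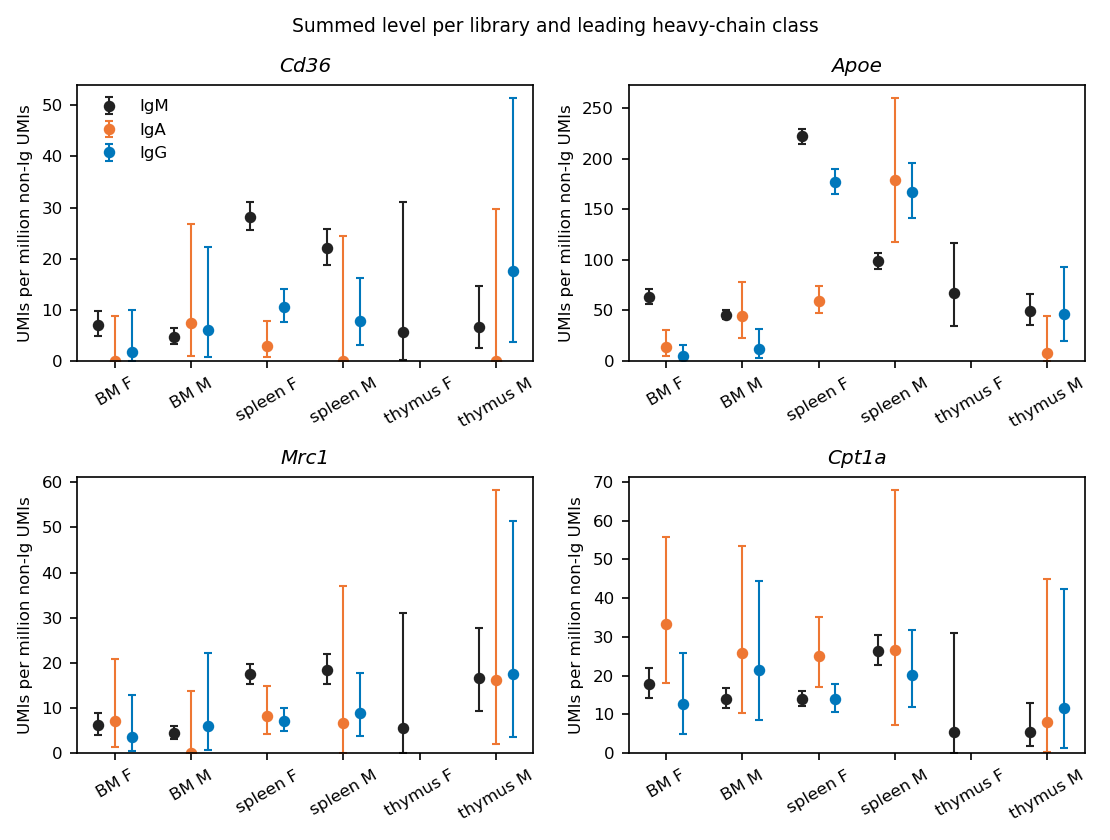
Level of each gene (y axis, CPM, outside immunoglobulin genes) by library (x axis, BM bone marrow, F female, M male) and heavy-chain class (colors), with exact 95% Poisson intervals, for sums of at least 20 cells. Cd36 and Mrc1 of spleen are highest in IgM cells, and Cpt1a is at or above the IgM level in the IgA cells of bone marrow and spleen.

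The spleen pattern was also present within IgM cells, which were 73.4% and 87.9% of spleen and 81.2% and 92.3% of bone marrow cells. Spleen IgM cells exceeded bone marrow IgM cells 4.03 and 4.68 times for Cd36 in females and males, 3.50 and 2.15 times for Apoe and 2.83 and 4.10 times for Mrc1. For Cpt1a the ratios were 0.784 and 1.88. In IgG cells they were 5.85 and 1.28 for Cd36, 32.8 and 13.6 for Apoe and 1.97 and 1.46 for Mrc1. Bone marrow had 123 and 68 IgG cells with few UMIs of these genes, so the sizes of these ratios are uncertain. Among them, the Ighg2b cells of the female library held 2 Apoe UMIs and 1 Cd36 UMI. The Ighg2c cells of the male library held 3 and 2. Against thymus, Cd36 in spleen IgG cells was 0.441 and 0.445 times as high, with 17 and 35 thymus cells. All cells of those thymus libraries together held 2 and 9 Cd36 UMIs. In IgA cells the Cd36 mean was 1.51 CPM in spleen, on 4 and 0 UMIs, and 3.71 CPM in bone marrow, on 0 and 2 UMIs. Among IgM cells with at least 10% ribosomal protein UMIs, the Apoe ratio of spleen to bone marrow was 7.11 in females and 0.814 in males. The male direction rested on few cells. Male bone marrow cells of that ribosomal class held 340 Apoe UMIs, and 265 of these lay in 4 IgM cells.

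No sex difference passed for any of the 4 genes, in a comparison in which 0.427% of 11239 genes did, 0.160% higher and 0.267% lower in males. The fit over the 6 libraries with tissue as a term left 2 residual degrees of freedom. The 95% intervals of fold changes, here and by class, use the larger degrees of freedom of edgeR, which also draw on the spread of other genes. Male against female gave -0.49 for Cd36 (95% interval -1.03 to 0.05, edgeR adjusted p 0.542), -0.72 for Apoe (-1.28 to -0.16, adjusted p 0.361), -0.17 for Mrc1 (-0.74 to 0.41, adjusted p 0.867) and 0.04 for Cpt1a (-0.49 to 0.56, adjusted p 0.972), all on the log2 scale. Unadjusted, Apoe alone was under 0.05, at 0.0135, and DESeq2 called none of the 4. Apoe was lower in the male library of all 3 tissues.

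Cells with a low share of ribosomal protein UMIs had a higher CPM of Mrc1 and Cpt1a. In cells with under 10% ribosomal protein UMIs, the bone marrow libraries held Cpt1a at 33.9 (female) and 26.7 CPM (male) and the spleen libraries at 29.5 and 34.9 CPM. Cells with at least 10% held it at 9.48, 6.89, 9.11 and 9.86 CPM, libraries in the same order. It was higher in the low class in 6 of 6 libraries, by 3.23 to 3.88 times in the 4 libraries with over 3 UMIs in the other class. Mrc1 was likewise higher in the low class in 6 of 6 libraries, although female thymus gave 1 UMI against 0 for each of these genes. Its level was 30.1 against 8.98 CPM in female spleen and 23.7 against 5.78 CPM in male spleen. Cd36 was higher there in 4 of 6 libraries and Apoe in 4 of 6. The contrast was seen in the data and is given without a test. CPM is a share of UMIs, and the classes were not matched for UMIs per cell. By count, female bone marrow held 71 Cpt1a UMIs in 841 low-class cells and 34 in 397 others. Male bone marrow held 97 in 1106 and 39 in 559, female spleen 171 in 1826 and 141 in 1741, and male spleen 174 in 1526 and 29 in 324. For Mrc1 the counts in the same cells were 175 and 139 in female and 118 and 17 in male spleen.

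The low class was 51.2% of cells in female and 82.5% in male spleen, and its part in the Cpt1a levels was not tested. Taken over all cells Cpt1a was 14.7 and 25.6 CPM in those libraries, and within the classes it was 29.5 and 34.9 CPM in one and 9.11 and 9.86 CPM in the other. For Cd36, both classes kept spleen above bone marrow, at 29.8 and 23.7 CPM against 6.20 and 4.13 CPM in low-ribosomal cells and at 20.5 and 14.3 CPM against 5.85 and 5.30 CPM in the others. Mrc1 did so too, with 10.0 and 8.26 CPM in low-ribosomal and 3.62 and 1.94 CPM in other cells of bone marrow. For Apoe, female and male spleen gave 181 and 130 CPM in the low class against 96.4 and 20.4 CPM in bone marrow, and 211 and 69.0 CPM against 29.5 and 60.1 CPM in the other. The 60.1 CPM of male bone marrow included its 4 Apoe-rich cells, with 265 of 340 UMIs.

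**Figure D4:**
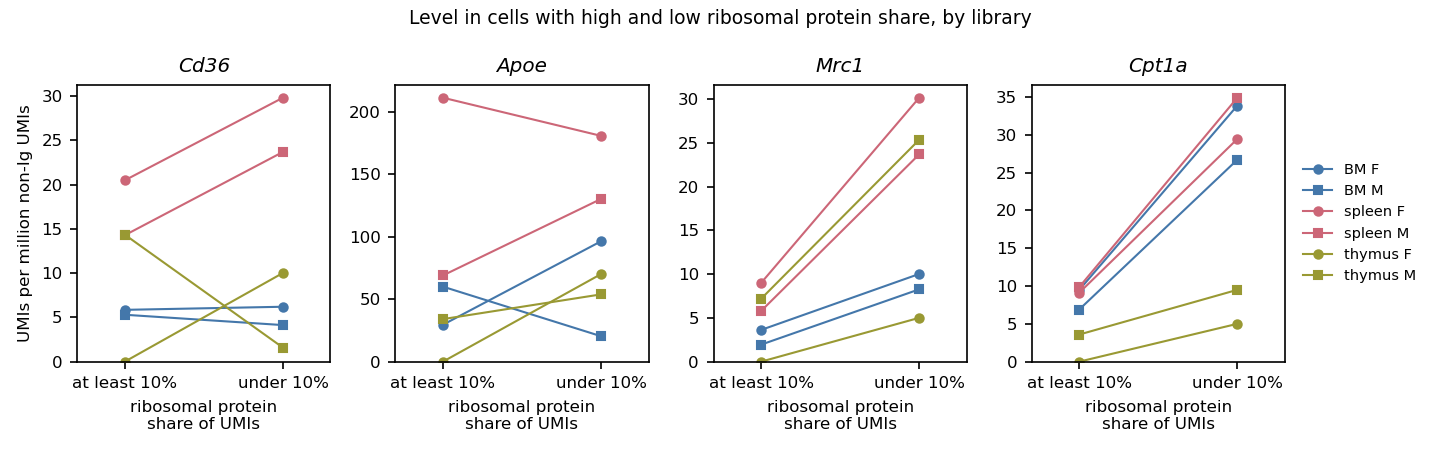
Level of each gene (y axis, CPM, outside immunoglobulin genes) in cells with a ribosomal protein share of at least 10% and under 10% (x axis), 1 line per library (BM bone marrow, F female, M male). The share is of UMIs outside immunoglobulin genes. All 6 lines rise for Mrc1 and Cpt1a, and the 2 bone marrow and 2 spleen libraries come together for Cpt1a within each class.

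Other lipid genes were taken from lists of fatty acid uptake and lipoprotein receptors, the carnitine shuttle and beta-oxidation, cholesterol efflux and LXR targets, sterol and fatty acid synthesis, PPAR targets and lipid droplets, and mannose receptor relatives, 95 genes in all. Between spleen and bone marrow none of the 69 that could be tested passed in edgeR or in DESeq2, with 4 at an unadjusted edgeR p under 0.05, in a comparison in which 0.436% of 11239 genes passed, 0.0712% higher in spleen and 0.365% lower. Their median log2 fold change was 0.07, against 0.03 over all genes, 40 being above 0 and 29 below. Of the 19 tested genes of the carnitine shuttle and beta-oxidation, to which Cpt1a belongs by function, 11 were above 0, with a median of 0.06. The 10 tested genes of fatty acid uptake and lipoprotein receptors had a median of -0.15. None of the 69 passed between males and females in edgeR or DESeq2, with 8 at an unadjusted edgeR p under 0.05.

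A few of these genes passed between thymus and the other tissues, all higher in thymus. Scd2, a stearoyl-CoA desaturase, stood at 197 and 157 CPM in thymus (females, then males), against 39.6 and 80.6 in spleen and 44.7 and 68.1 in bone marrow. It rose by 1.31 (SE 0.31) against spleen and by 1.36 (SE 0.31) against bone marrow, at edgeR adjusted p of 0.0397 and 0.0243. Abcg1, which exports cholesterol, rose against spleen by 1.37 (SE 0.31, adjusted p 0.0269) and Acsl3, an acyl-CoA synthetase of lipid droplet formation, rose against bone marrow by 1.54 (SE 0.38, adjusted p 0.0477). These were 2 of 69 genes in each comparison, in which 0.632% and 0.765% of 11239 genes passed. Against spleen 0.498% of genes were higher and 0.133% lower in thymus, and against bone marrow 0.525% and 0.240%. DESeq2 called 0 and 1 of the 69. In both comparisons 0 passed in edgeR with free RNA subtracted, and 0 when the female bone marrow, male bone marrow or female thymus library was left out. Without female spleen 0 passed against spleen. Of the 19 genes of the carnitine shuttle and beta-oxidation none passed, and most were lower in thymus, 16 against spleen and 13 against bone marrow. Their medians were -0.36 and -0.20, against -0.04 and -0.02 over all genes.

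By heavy-chain class, 6 of 65 tested genes of the lists rose and 3 fell in IgA against IgM, where 3.74% of all genes rose and 4.25% fell. In IgG against IgM 3 rose and 5 fell, where 5.26% and 6.38% did. Medians over the 65 were 0.05 and 0.03, against -0.02 and 0.01 over all genes. The sterol transporter gene Abcg1 fell in both, by -1.34 (SE 0.26, edgeR adjusted p 0.000891) in IgA and by -1.05 (SE 0.18, adjusted p 7.29e-05) in IgG, and it was 26.4, 7.14 and 12.6 CPM in IgM, IgA and IgG cells of female bone marrow. Mylip, a ligase that degrades the LDL receptor, also fell in both, by -0.90 and -0.51. Abca1, the second cholesterol exporter, rose by 0.69 in IgA (adjusted p 0.00149) and fell by 0.49 in IgG (adjusted p 0.0102).

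Of 18 tested genes of sterol and fatty acid synthesis, 1 rose in IgA and 2 in IgG, and none fell, where 3.74% and 5.26% of all genes rose. Sqle, the squalene epoxidase, rose by 1.42 in IgA (SE 0.27, edgeR adjusted p 0.000746), with 35.7 against 5.31 CPM in female bone marrow. Insig1, which holds back sterol synthesis, rose by 0.63 in IgG (adjusted p 0.000211). The mitochondrial carrier gene Ucp2 rose by 0.60 in IgG (adjusted p 7.54e-05), at 717 against 463 CPM in female spleen. Acaa2, a thiolase of beta-oxidation, fell by 0.86 in IgG (adjusted p 0.00254), Ly75 of the mannose receptor family rose by 0.60 in IgA (adjusted p 0.00861) and Npc2, a lysosomal cholesterol carrier, fell by 0.47 in IgA (adjusted p 0.0151).

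**Figure D5:**
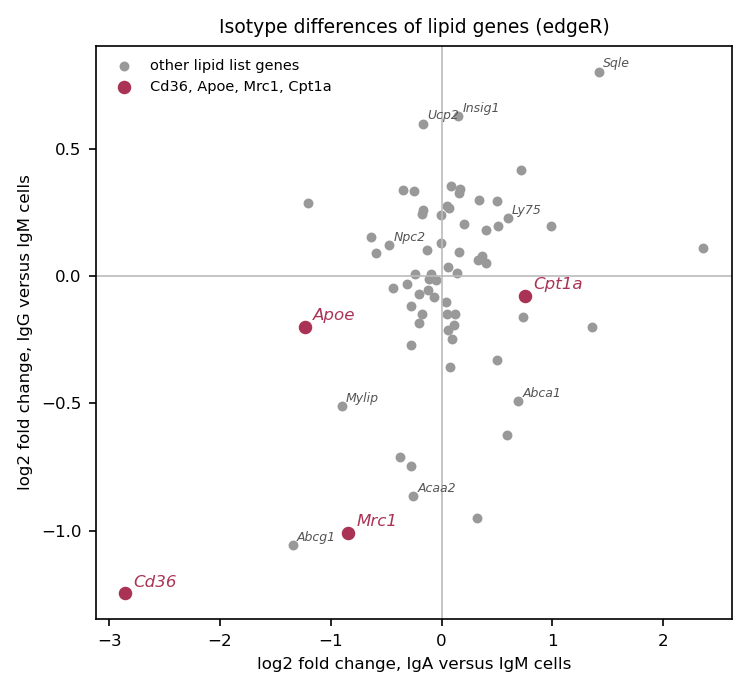
Log2 fold change of IgA against IgM cells (x axis) and of IgG against IgM cells (y axis) from the edgeR fit, for the 4 genes (red) and the 65 other lipid genes tested (grey, named where the text names them). Both axes share the IgM sums, Cd36 lies lowest on both, and Cpt1a is the only one of the 4 genes to the right of 0.

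Over the 16 sums of library and class, the 4 genes did not form 1 pattern. Pearson's r of log2(CPM + 1) was 0.50 between Cd36 and Apoe, 0.18 between Cd36 and Mrc1 and -0.12 between Cd36 and Cpt1a. Among genes with a mean of at least 20 CPM, those most like Cd36 were BC003965 (0.81), Tmem11 (0.80) and Mri1 (0.79), and those most like Apoe were Ino80b (0.78), Plrg1 (0.69) and Derl3 (0.69). Snap23 (0.82), Bmyc (0.82) and Isg15 (0.76) were most like Mrc1, and Ggact (0.80) and Ccdc85b (0.77) were among those most like Cpt1a. The sums share libraries, depth and free RNA, so these values are a description.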

How the data were processed

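The deposited UMI count matrices (10x 5' v1.1, Cell Ranger 6.0.2 with mm10/GRCm38, per the submitters' processing notes and the file headers) were used as the authors filtered them: 39949 barcodes in 6 libraries. Raw matrices (header Cell Ranger 4) gave the free RNA profile, from barcodes outside the filtered list with at most 100 UMIs. The 6 antigen receptor libraries, whose deposited names give the other sex than their labels, were not used. Computed here were the cell filter, summed counts, CPM and a free RNA share from light-chain variable UMIs outside the leading gene. Tests were edgeR 4.0.16 quasi-likelihood fits (R 4.3.3, TMM, filterByExpr, Benjamini-Hochberg over all genes), checked on simulated data, with DESeq2 1.42.0 as an alternative. The SE is the fold change over the root of F. Doublets were not called. Whether the 3 tissues were taken from 1 set of animals per sex is not stated in the labels, and p-values measure the spread between these libraries only. The 4 genes and all lists were chosen with earlier results of these data known. Named genes were the 4, up to 6 list genes per comparison by adjusted p, and 3 most correlated genes each, of which 1 is not reported here. Alternatives were a 2000 UMI minimum, a 90% light-chain share, at least 10% ribosomal or under 10% mitochondrial UMIs, no macrophage UMI, free RNA subtracted, other scaling, no filter on low counts and each library left out, with fits without spleen libraries and filter added after seeing the data.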

Additional observations from a re-analysis of the deposited data

Results flagged for a closer look

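For 3 of the genes, tissue ratios had opposite signs in females and males, and none of these differences was tested. The log2 ratio of thymus to bone marrow for Mrc1 was -0.66 in females and 1.93 in males, a difference of 2.59, with 1 UMI in female thymus. The log2 ratio of spleen to bone marrow for Cpt1a was -0.33 in females and 0.81 in males, a difference of 1.14. For Apoe the ratio of thymus to bone marrow was -0.034 and 0.00068, a difference of 0.0351 that is within counting error.

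The 17034 barcodes with at least 1000 UMIs that missed the light-chain criterion also held the genes, with 856 UMIs of Cd36, 7117 of Apoe, 775 of Mrc1 and 874 of Cpt1a. In female spleen they stood at 31.4, 287, 26.1 and 24.5 CPM in that order, and Prdm1 was 726 CPM there against 844 CPM in the kept cells. In female bone marrow they stood at 3.22, 31.5, 5.45 and 13.6 CPM. Just inside and just outside that criterion, at a leading light-chain share of 50 to under 60% and of 40 to under 50%, Cd36 in spleen was 30.1 and 36.2 CPM in females and 28.3 and 21.9 CPM in males.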

How the results depend on the processing

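In the fits by class, the Cd36 change in IgA ran from -3.86 with free RNA subtracted to -2.52 in DESeq2 over 13 other settings. All of these kept female spleen, and the change is given without a test. Cd36 and Mrc1 were below the filter on low counts at a 90% light-chain share and without female spleen, and Mrc1 also without male spleen. Under DESeq2 the changes in IgG were -0.82 for Cd36 and -0.88 for Mrc1, given without a test, and Apoe in IgA (-1.03) did not pass. With at least 10% ribosomal UMIs, Mrc1 in IgG was -1.26, Apoe in IgG turned to 0.12 and Apoe between sexes passed at -0.60. At a 90% light-chain share Apoe in IgA was -2.82 and did not pass. The rise of Cpt1a in IgA missed the threshold in 8 of 14 alternatives, among them 0.67 with no filter, 0.75 in DESeq2, 0.70 without macrophage UMIs, 0.82 with at least 10% ribosomal UMIs and 0.86 with free RNA subtracted. Cpt1a between sexes turned to -0.027 at 2000 UMIs, -0.31 at a 90% light-chain share and -0.23 with at least 10% ribosomal UMIs. The causes were not tested.

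In fits with no filter on low counts, chosen after seeing the data, Cd36 in IgA (-2.09) and IgG (-0.92), Apoe in IgA (-0.44) and Mrc1 in IgG (-0.65) did not pass without female spleen. Without both spleen libraries Cd36 (-1.33 and -0.22) and Mrc1 (-0.29) did not pass, and Apoe in IgG passed at -2.06. Without male spleen Apoe in IgG passed at -0.73. Cpt1a in IgA, which already missed the threshold with no filter and all libraries, gave 0.62, 0.82 and 0.79 without female, both and male spleen and passed in none of these.

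Leaving out 1 library at a time gave -3.44 to -2.71 for Cd36 in IgA, -1.36 to -1.19 for Cd36 in IgG, -1.81 to -0.36 for Apoe in IgA, -0.69 to 0.038 for Apoe in IgG, -1.11 to -1.01 for Mrc1 in IgG and 0.69 to 0.88 for Cpt1a in IgA. Cpt1a in IgA did not pass without female bone marrow, male bone marrow or female spleen. Between sexes it gave -0.88 to -0.33 for Apoe, -0.32 to 0.12 for Mrc1 and -0.38 to 0.42 for Cpt1a.

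The log2 ratio of spleen to bone marrow for Cd36 was 1.66 at a 90% light-chain share, 1.64 with at least 10% ribosomal UMIs and 1.85 to 2.16 with a library left out. For Apoe it was 1.12 to 2.04 with a library left out. Spleen to thymus gave 1.13, 1.07 and 1.28 for Cd36 at 2000 UMIs, a 90% light-chain share and at least 10% ribosomal UMIs. The last 2 settings gave 2.16 and 3.04 for Apoe, and 2.59 and 2.40 for Cpt1a, which was 1.90 under 10% mitochondrial UMIs and 1.97 with free RNA subtracted. With a library left out these were 1.42 to 1.61 for Cd36, 1.14 to 2.06 for Apoe, -0.082 to 2.07 for Mrc1 and 1.48 to 2.41 for Cpt1a.

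Counts of genes passing, in the order no filter, DESeq2, 90% light-chain share, at least 10% ribosomal UMIs and free RNA subtracted, were 103, 3, 7, 351 and 13 for spleen against bone marrow (49 as reported), 119, 39, 16, 140 and 22 for thymus against spleen (71), and 101, 7, 19, 449 and 7 between sexes (48). Thymus against bone marrow (86) gave 131 with no filter, 54 in DESeq2, and 30 both at a 90% light-chain share and with free RNA subtracted. At 2000 UMIs spleen against bone marrow gave 82 and the sexes 117. With a library left out the counts were 11 to 158, 33 to 934, 16 to 353 for thymus against bone marrow, and 10 to 205 between sexes. IgA against IgM (748) gave 113 at a 90% light-chain share, 193 with at least 10% ribosomal UMIs and 418 to 781 with a library left out. IgG against IgM (1091) gave 698 with at least 10% ribosomal UMIs and 571 to 1138.

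Of the other lipid genes, 2 passed between spleen and bone marrow with no filter, 1 with at least 10% ribosomal UMIs and 0 to 2 with a library left out. Thymus against spleen gave 0 in DESeq2 and with free RNA subtracted, 1 at 2000 UMIs, at a 90% light-chain share and with at least 10% ribosomal UMIs, and 0 to 6 with a library left out. Thymus against bone marrow gave 1 in DESeq2, at 2000 UMIs and at a 90% light-chain share, 0 with at least 10% ribosomal UMIs and with free RNA subtracted, and 0 to 4. The fit over libraries has sex as a term and so already matches the female and the male library of each tissue. The labels give no replicate numbers, and no other pairing was fitted. Thymus, with 1 to 2 UMIs of 3 of the genes in females, limits every comparison with it.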
